A study of Mus musculus with 28 samples.

Results

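The genes described here are 7 genes of mouse hepatocytes near the central vein that handle glutamine, glutamate and ammonium or mark the same zone: Glul, Slc1a2, Rhbg, Oat, Slc13a3, Cyp2e1 and Rgn. They were found on the array by the RefSeq accession that each probe carries, which gave 10 of the 55681 non-control probes and 7 of 37208 genes and transcripts. The study put the livers of 28 male mice on Agilent 1-colour arrays, an array for each animal, after diets with phenobarbital (PB), a barbiturate that acts through the nuclear receptor CAR. Outbred CD-1 mice were fed 1500 or 0 ppm PB over 7 days, with 4 animals on each diet. hCAR/hPXR mice, in which the human receptors CAR and PXR replace those of the mouse, were fed 1000 or 0 ppm, also over 7 days, with 7 animals on each diet. Mice of the strain C3H/HeNCrlCrlj, C3H for short, were fed 500 or 0 ppm over 27 weeks, with 3 animals on each diet, and all of them had first received diethylnitrosamine, a liver carcinogen, in 1 intraperitoneal dose of 90 mg/kg. The labels name the tissue as liver and do not say whether C3H samples were tumour or the tissue around it.

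Ammonium reaching the liver is first used by periportal hepatocytes for urea. A narrow ring of hepatocytes around the central vein takes up what is left and binds it to glutamate as glutamine, and Wnt and beta-catenin signalling keeps that ring's genes active. Glul encodes glutamine synthetase, the enzyme of this last step. Slc1a2 encodes a sodium-driven glutamate transporter, Rhbg an ammonium transporter of the Rh family, and Slc13a3 a sodium-driven dicarboxylate carrier that takes up 2-oxoglutarate, the carbon source of glutamate. Oat encodes ornithine aminotransferase, a mitochondrial enzyme that turns ornithine toward glutamate. Cyp2e1, a cytochrome P450 that oxidises ethanol and other small molecules, and Rgn, which encodes regucalcin, a lactonase of vitamin C synthesis, are used here as genes of the wider pericentral zone.

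On mouse build GRCm38.p6 Glul lies on chromosome 1 from 153899929 to 153909723, Slc1a2 on chromosome 2 from 102658239 to 102790784, and Rhbg on chromosome 3 from 88242874 to 88254739. Oat lies on chromosome 7 from 132557475 to 132576398, Slc13a3 on chromosome 2 from 165405295 to 165473197, Cyp2e1 on chromosome 7 from 140763819 to 140774990, and Rgn on chromosome X from 20549766 to 20562089. All are protein-coding. Slc1a2 had 3 probes, Cyp2e1 had 2 and the others 1 each, and each gene is represented by its brightest probe. Each of these 7 probes carried the scanner software's mark for a signal well above background on every array where its spot was used, so no member was lost to the filter on dim probes. Values are log2 signals minus the 75th percentile of their array, so that a difference of 1 is 2-fold, and levels are compared only within a probe.

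The RefSeq promoter table of the same build held 5 of the 7 genes, all but Rhbg and Rgn. The 250 bases before the annotated start are shown for the 3 genes that changed in both CD-1 and C3H mice and for Cyp2e1, whose main probe passed the test in no strain. Capitals mark matches on either strand to AGGTCA, a nuclear receptor half-site, to CTTTGA or CTTTGT, the core bound by TCF factors of the beta-catenin pathway, to CCAAT, and to TATAAA.
Glul, chr1:153899679-153899928, plus strand: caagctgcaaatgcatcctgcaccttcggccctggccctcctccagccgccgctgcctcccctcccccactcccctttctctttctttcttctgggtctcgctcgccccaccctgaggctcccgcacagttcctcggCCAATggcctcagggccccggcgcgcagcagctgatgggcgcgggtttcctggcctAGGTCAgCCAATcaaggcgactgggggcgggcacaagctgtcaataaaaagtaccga
Slc1a2, chr2:102706188-102706437, plus strand: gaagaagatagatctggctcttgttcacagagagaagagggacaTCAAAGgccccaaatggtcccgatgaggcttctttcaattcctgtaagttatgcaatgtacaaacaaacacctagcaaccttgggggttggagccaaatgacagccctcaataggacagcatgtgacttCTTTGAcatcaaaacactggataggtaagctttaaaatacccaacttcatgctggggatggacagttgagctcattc
Oat, chr7:132576399-132576648, minus strand: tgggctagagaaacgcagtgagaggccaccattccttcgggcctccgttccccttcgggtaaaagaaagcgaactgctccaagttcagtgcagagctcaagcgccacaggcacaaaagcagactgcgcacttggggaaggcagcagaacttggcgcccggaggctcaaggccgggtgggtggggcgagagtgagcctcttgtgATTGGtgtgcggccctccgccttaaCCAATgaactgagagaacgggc
Cyp2e1, chr7:140763569-140763818, plus strand: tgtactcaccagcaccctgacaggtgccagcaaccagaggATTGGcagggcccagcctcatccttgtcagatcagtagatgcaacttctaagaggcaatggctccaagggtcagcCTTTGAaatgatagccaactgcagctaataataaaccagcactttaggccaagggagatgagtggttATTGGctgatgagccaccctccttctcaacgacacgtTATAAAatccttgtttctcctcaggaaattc

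The Glul window held AGGTCA 57 bases before the start, next to a CCAAT at 50, and a second CCAAT at 113. Slc1a2 held CTTTGA at 206, on the opposite strand, and at 77, in a window that lies inside the gene's span because the table's start is an internal one. Oat held CCAAT at 47 and 22, on opposite strands. Cyp2e1 held TATAAA at 31, CTTTGA at 135 and CCAAT at 210 and 68, and the Slc13a3 window held none of these motifs. Such matches are common: of 32817 mouse promoter windows of this length 27.6% held CTTTGA or CTTTGT, 14% AGGTCA, 33.8% CCAAT and 12.4% TATAAA. They are descriptions of letters and not measured binding sites.

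Cyp2b10, the standard target of CAR, rose in PB animals of every strain, by 6.66 ± 0.47 in CD-1, 4.49 ± 0.20 in hCAR/hPXR and 5.74 ± 0.25 in C3H mice (log2, standard error of the fit), with no overlap between groups. The hepatocyte markers on the array, 7 of 8 listed, were well above background on all arrays. Between 42.6% and 70.6% of probes per array were well above background, and the 99th percentile of signal was 4019 to 6490 on CD-1 arrays, against 30159 to 48010 on hCAR/hPXR and 22576 to 31394 on C3H arrays. The arrays fill 5 slides. All CD-1 PB animals lay on 1 slide and all CD-1 controls on another, so slide and PB cannot be told apart there. In hCAR/hPXR mice PB animal 1 shared the slide of the 7 controls and PB animals 2 to 7 lay on another. All 6 C3H animals shared 1 slide.

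In C3H mice after 27 weeks 5 of the 7 genes rose strongly with PB, and all 5 separated the groups completely. These were the ammonium transporter, glutamine synthetase, the dicarboxylate carrier, the glutamate transporter and ornithine aminotransferase, which were 5.07- to 13.5-fold higher in PB livers. Cyp2e1 and Rgn, the genes of the wider zone, did not pass. Of all 18273 genes tested in C3H mice 14.7% were called, 7.38% as higher (limma, adjusted p under 0.05 over all tested genes), and 41.6% had groups that did not overlap. The median of the 7 genes was 2.46 (log2) and that of all tested genes -0.05. In whole liver a change in the number of cells of a type and a change in RNA per cell cannot be told apart.

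Rhbg had log2 levels of 6.97, 7.97 and 8.38 in C3H PB livers, against 3.93, 4.09 and 4.05 in C3H control livers. The difference was 3.75 ± 0.35 (13.5-fold, n = 3 each, limma adjusted p = 0.00282), placing this ammonium transporter at rank 148 by size among the 1348 genes that rose. Glul had 8.62, 9.65 and 9.63 in PB livers, against 6.04, 6.04 and 6.28 in control livers, a difference of 3.18 ± 0.29 (9.04-fold, adjusted p = 0.00277). Every PB liver thus lay over 2 log2 units above the highest control for both genes, and the control livers lay close together.

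Slc13a3 had 5.26, 6.70 and 6.80 in PB livers, against 3.21, 3.37 and 3.44 in control livers, which gave 2.92 ± 0.41 (7.55-fold, adjusted p = 0.0102). Slc1a2 had 4.27, 5.42 and 5.18 in PB livers, against 2.55, 2.41 and 2.54 in control livers, which gave 2.46 ± 0.30 (5.50-fold, adjusted p = 0.00650). All 3 Slc1a2 probes went the same way. The other probes, which carry a second RefSeq transcript of the gene, gave 2.86 and 2.88, and for the second of them the rise was at least 3.95-fold, since it was well above background on no control array. Oat had 6.67, 8.43 and 8.11 in PB livers, against 5.52, 5.51 and 5.15 in control livers, which gave 2.34 ± 0.45 (5.07-fold, adjusted p = 0.0238). Of the 5 genes Oat had the widest spread among PB livers (SD 0.94), and its call held in only 1 of the 6 fits that left out 1 animal, the one without PB animal 1 (adjusted p = 0.000671), reaching 0.0923 in the others.

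Cyp2e1 did not separate the groups. It had 10.27, 10.63 and 10.71 in C3H PB livers, against 10.91, 9.80 and 10.91 in C3H control livers, a difference of -0.00040 ± 0.33 with a 95% confidence interval of -0.78 to 0.78 (adjusted p = 0.999). Its second probe gave 0.22. Rgn had 9.13, 9.77 and 10.02 in PB livers, against 9.01, 9.0 and 9.25 in control livers (0.56 ± 0.24, 95% interval -0.02 to 1.13, adjusted p = 0.154), and its groups overlapped. Without PB animal 1 Rgn passed at 0.81 (adjusted p = 0.0142).

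**Figure D1:**
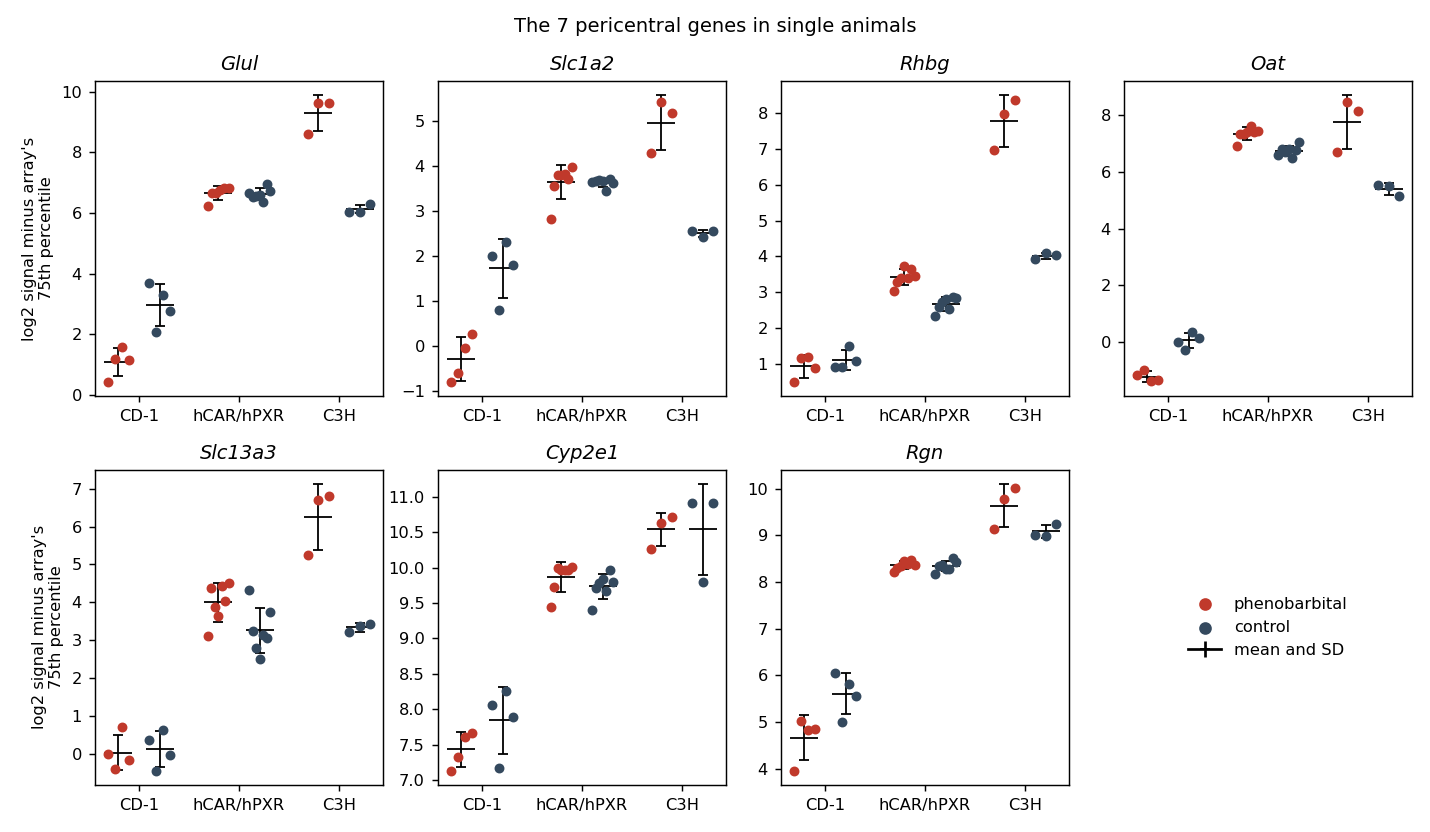
Log2 signal minus the 75th percentile of the array for the main probe of each gene, with 1 point per animal, PB in red left of control in dark blue, and bars for mean and SD (n = 4, 7 and 3 per group in CD-1, hCAR/hPXR and C3H, and 6 for Glul in hCAR/hPXR PB animals). In C3H mice PB and control animals are far apart for Glul, Slc1a2, Rhbg, Oat and Slc13a3 and overlap for Cyp2e1 and Rgn, and each panel has its own vertical range.

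The 3 C3H PB livers differed among themselves. PB animal 1 was the lowest of the 3 for 7 of 7 genes, while over all tested genes it was the lowest for 41.6%. Averaged over the 7 genes the log2 level was 7.31, 8.37 and 8.40 in PB animals 1, 2 and 3, against 5.88, 5.74 and 5.95 in control animals. Periportal genes ran the other way: the mean level of 14 listed genes was 5.39, 3.79 and 2.04 in PB animals 1, 2 and 3, against 6.20, 6.08 and 6.08 in control animals. PB animal 1 therefore lay nearer to the controls on both lists, and still outside their range.

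**Figure D2:**
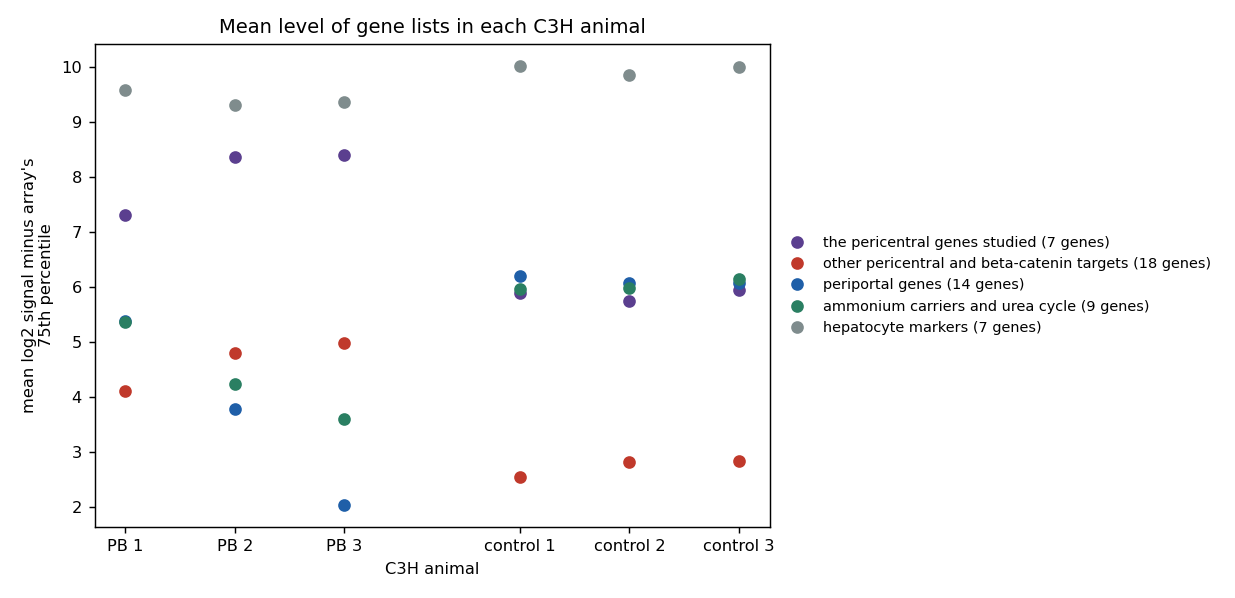
Mean log2 signal minus the 75th percentile of the array over the tested genes of 5 lists, 1 point per list for each C3H animal, PB animals left of control animals. PB animals 2 and 3 are higher than PB animal 1 for the pericentral lists and lower for the periportal and urea cycle lists, and the 3 control animals lie close together on each list.

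Other genes of the pericentral zone and of beta-catenin signalling also rose in C3H mice. Of 18 tested genes of that list 13 rose and 0 fell, with a median of 2.12, while 7.38% of all tested genes rose. Nkd1, an antagonist in the Wnt pathway that is itself a beta-catenin target, rose by 4.80 ± 0.41 (adjusted p = 0.00239). A second Nkd1 probe gave a smaller difference of 1.71 and was well above background on 1 control array. Cyp1a2, a P450 enzyme of the pericentral zone, rose by 2.04 ± 0.20 (adjusted p = 0.00360) and Gstm3, a glutathione transferase, by 2.23 ± 0.13 (adjusted p = 0.000729). Gstm3 also rose with PB in CD-1 mice, where Glul fell, and in hCAR/hPXR mice, where Glul did not pass. Axin2, the negative regulator used as a standard reporter of beta-catenin activity, was at least 3.66-fold higher (adjusted p = 0.00187) and was well above background on no control array. Leaving out 1 animal moved the list's count to between 8 and 15.

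Of 14 periportal genes 4 fell in C3H PB livers and 0 rose, with a median of -2.55, while 7.30% of all tested genes fell. G6pc, glucose-6-phosphatase, fell by 2.70 ± 0.44 (adjusted p = 0.0162), and Ctsc, Tat and Agxt fell as well. The count rested on single animals: without PB animal 1 all 14 genes fell, when 5381 of all genes were called in place of 2682, and each of the other 5 fits that left out 1 animal had 0 to 2. Urea cycle genes and ammonium carriers had a median of -1.44, and 2 of 9 fell, namely Car5a, a mitochondrial carbonic anhydrase that supplies bicarbonate (-1.83 ± 0.32, adjusted p = 0.0188), and Slc25a15, the mitochondrial ornithine carrier (-0.90 ± 0.22, adjusted p = 0.0407). Without PB animal 1 that count was 7 of 9, and in the other 5 such fits it was 0 or 1. Cps1, the first enzyme of the urea cycle, had 5.16, 2.74 and 0.39 in PB livers, against 6.14, 6.0 and 6.18 in control livers (-3.34 ± 1.08, adjusted p = 0.0833). Its groups did not overlap, and the spread among PB livers was wide.

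Within the glutamine and glutamate route few genes were called in C3H mice, where 14.7% of all tested genes were, 7.38% as higher and 7.30% as lower. Gls2, the liver glutaminase that opposes Glul, had 6.63, 3.95 and 1.10 in C3H PB livers, against 7.27, 7.20 and 6.79 in control livers (-3.20 ± 1.26, adjusted p = 0.125). Of 18 tested turnover genes 1 rose, Prodh, the proline dehydrogenase (0.84 ± 0.20, adjusted p = 0.0395), 0 fell, and the median was -0.35. Glud1, glutamate dehydrogenase, gave -0.01 ± 0.17 (adjusted p = 0.962). Among 16 tested carriers of glutamine, glutamate and dicarboxylates 1 rose and 1 fell. The riser was Slc1a5, a glutamine transporter, with 0.71, 1.21 and 1.46 in PB livers, against -4.45, -2.85 and -4.28 in control livers (4.99 ± 0.45, adjusted p = 0.00256), well above background on 1 of 3 control arrays. Its second probe gave a smaller difference of 2.33 and was well above background on 3 of 3 PB arrays and on 0 of 3 control arrays. Slc25a13, the aspartate and glutamate carrier of mitochondria, fell by 0.72 ± 0.16 (adjusted p = 0.0347). Without PB animal 1 a count of 7 turnover genes and 5 carriers fell. In that fit 5381 of all 18273 tested genes were called, 44.1% of them as higher.

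Near Rgn in the route to vitamin C, 3 of 6 genes rose in C3H mice, where 7.38% of all tested genes did. Gulo, the last enzyme of vitamin C synthesis, had 9.10, 9.68 and 9.94 in PB livers, against 7.93, 7.86 and 8.17 in control livers (1.59 ± 0.23, adjusted p = 0.0123). Ugdh, which makes UDP-glucuronate, rose by 1.07 ± 0.15 (adjusted p = 0.0101), and Slc23a2, a vitamin C transporter, by 1.04 ± 0.15 (adjusted p = 0.0110). Ugdh rose with PB in hCAR/hPXR mice as well.

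Markers of cell types and of liver tumours moved beside these genes in C3H mice. Of 7 hepatocyte markers 4 fell, with a median of -0.56, and Alb, albumin, fell by 0.71 ± 0.14 (adjusted p = 0.0279). The summed level of these markers, on the log2 scale, lay between 12.5 and 12.8 in PB livers, against 13.2 to 13.3 in control livers. Of 8 Kupffer cell markers 0 passed (summed level 5.87 to 6.17 in PB livers, against 6.14 to 6.59 in control livers). Of 8 endothelial markers 1 rose and 1 fell (6.34 to 6.87, against 7.07 to 7.22). Of 6 stellate cell markers 0 passed, and their median was 0.74 (summed level 5.41 to 6.46, against 6.46 to 6.78). That sum is mostly Dcn, which had 6.31, 5.86 and 4.59 in PB livers, against 6.37, 6.63 and 6.51 in control livers. Of 4 bile duct markers 1 rose and 1 fell, with a median of -1.81 (summed level 1.43 to 2.37, against 1.44 to 2.0 in control livers). Of 7 tumour and fetal markers 5 rose, among them Afp by 3.77 ± 0.88 (adjusted p = 0.0387) and Prom1 by 4.61 ± 0.35 (adjusted p = 0.00169), and 0 of them fell. Their summed level lay between 7.46 and 8.23 in PB livers, against 3.54 to 5.42 in control livers. Their part in the changes of the pericentral genes was not tested.

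**Figure D3:**
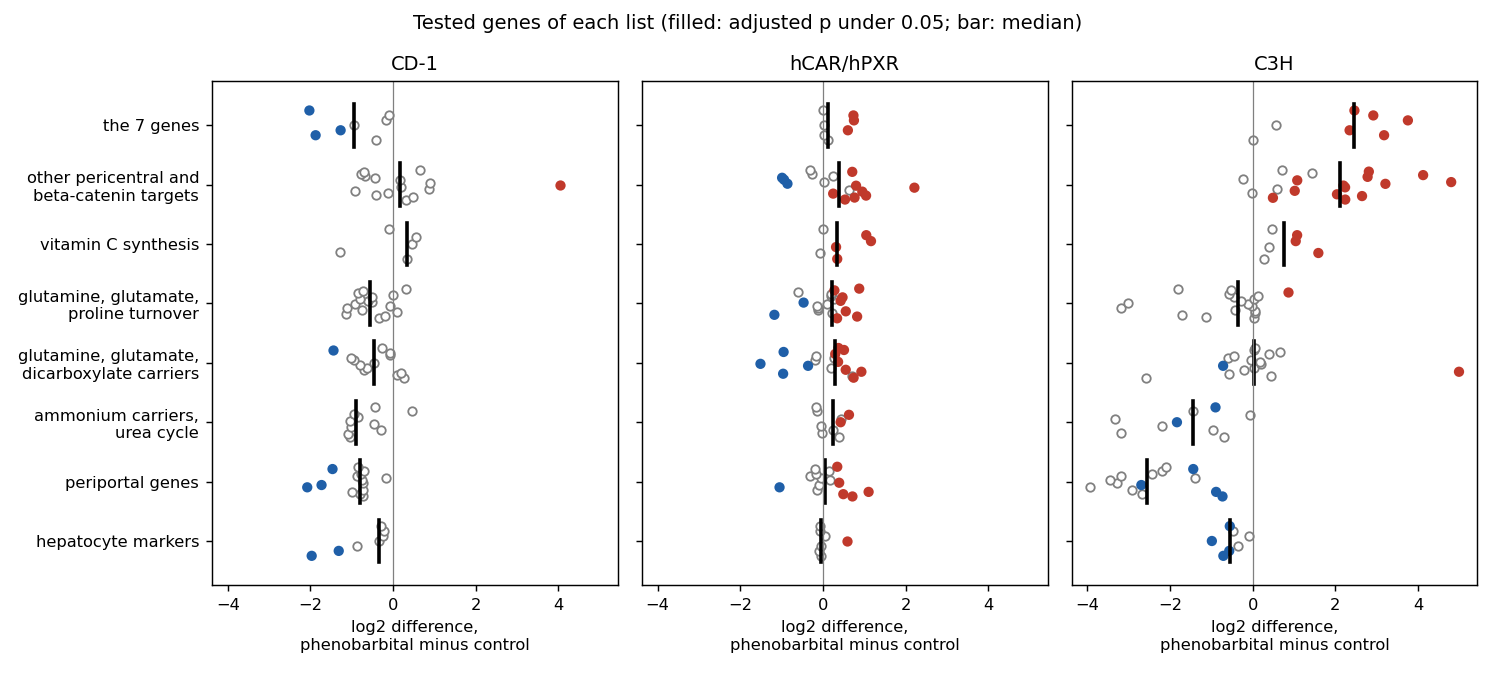
Log2 difference, PB minus control, of the tested genes of 8 lists in each strain. Each point is a gene, filled where the adjusted p is under 0.05 (red higher, blue lower), and the black bar is the median of the list. In C3H mice the medians of the pericentral lists are 2.46 and 2.12 and that of the periportal list is -2.55.

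In CD-1 mice after 7 days 3 of the 7 genes were lower with PB and 0 higher. These were the glutamate transporter, glutamine synthetase and ornithine aminotransferase, each with groups that did not overlap. Of 23831 genes tested in CD-1 mice 7.98% were called, 6.13% as lower and 1.85% as higher, and 18.6% had groups that did not overlap. Slc1a2 had -0.80, -0.61, -0.05 and 0.25 in CD-1 PB livers, against 2.0, 0.78, 2.30 and 1.80 in CD-1 control livers (-2.03 ± 0.36, 4.07-fold lower, n = 4 each, adjusted p = 0.00487). Its other probes, too dim to be tested, gave -1.31, with groups that overlapped, and -0.89. Glul had 0.42, 1.18, 1.56 and 1.15 in PB livers, against 3.68, 2.08, 3.30 and 2.75 in control livers (-1.88 ± 0.37, 3.67-fold lower, adjusted p = 0.00876). The lowest control of both genes was animal 2, and it still lay above every PB animal. Oat had -1.16, -0.96, -1.37 and -1.31 in PB livers, against 0.01, -0.28, 0.38 and 0.17 in control livers (-1.27 ± 0.26, 2.41-fold lower, adjusted p = 0.0109). Without control animal 3 Oat did not pass (-1.17, adjusted p = 0.0512).

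The other 4 genes did not pass in CD-1 mice, and their groups overlapped. Rhbg gave -0.17 ± 0.27 (95% interval -0.77 to 0.42, adjusted p = 0.708) and Slc13a3 -0.10 ± 0.33 (95% interval -0.80 to 0.61, adjusted p = 0.867). Rgn gave -0.94 ± 0.32 (adjusted p = 0.0893), with 3.96 to 5.02 in PB livers, against 5.01 to 6.04 in control livers. Its groups overlapped by 1 animal on each side, and it passed with normexp background correction (-0.98, adjusted p = 0.00416) and in 1 fit of all 28 arrays (adjusted p = 0.00189). Cyp2e1 gave -0.41 ± 0.30 on its main probe (adjusted p = 0.385) and -1.32 ± 0.34 on its second (adjusted p = 0.0343 in a fit over probes), so the call for Cyp2e1 depends on the probe.

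Other hepatocyte genes were lower in CD-1 PB livers too. Alb fell by 1.97 ± 0.36 (adjusted p = 0.00493) and Apoa1, an apolipoprotein, by 1.32 ± 0.31 (adjusted p = 0.0221), 2 of 7 hepatocyte markers, whose median was -0.35. The summed level of these markers was 11.6 to 12.3 in PB livers, against 12.1 to 12.8 in control livers. Of 14 periportal genes 3 fell, Etnppl, G6pc and Tat, and 0 rose, with a median of -0.80, so some genes of both ends of the liver lobule fell. None of 10 urea cycle genes and ammonium carriers and none of 16 turnover genes passed, with medians of -0.90 and -0.55. Among 13 carriers 1 fell, Slc7a5, which exchanges glutamine for large neutral amino acids (-1.46 ± 0.30, adjusted p = 0.0119). Of 15 other pericentral genes Gstm3 alone passed, and it rose (4.05 ± 0.45, adjusted p = 0.000191). The median of these 15 genes was 0.17, against -0.04 for all tested genes, so that list as a whole was not lower. The median CV of replicate spots was 21.1% to 25.3% on the PB arrays, against 13.2% to 14.3% on the control arrays. Of 7 Kupffer cell, 7 endothelial and 6 stellate cell markers 0 passed, of 6 bile duct markers 1 fell, and of 3 tumour and fetal markers 1 rose. The part of these measures in the lower values was not tested.

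In hCAR/hPXR mice 3 of the 7 genes were higher with PB, by less than 2-fold, in a comparison where 58.1% of 20039 tested genes were called, 35.0% as higher and 23.1% as lower, and 20.5% had groups that did not overlap. The median of the 7 genes, 0.13, equalled that of all tested genes at this rounding. Rhbg had 3.02 to 3.73 (median 3.40) in hCAR/hPXR PB livers, against 2.34 to 2.87 (median 2.72) in hCAR/hPXR control livers (0.75 ± 0.11, 1.68-fold, n = 7 each, adjusted p = 0.000106), with no overlap. Oat had 6.89 to 7.60 (median 7.37) in PB livers, against 6.48 to 7.06 (median 6.74) in control livers (0.60 ± 0.11, 1.52-fold, adjusted p = 0.000322). Slc13a3 had 3.10 to 4.51 (median 4.04) in PB livers, against 2.51 to 4.32 (median 3.14) in control livers (0.74 ± 0.27, 1.67-fold, adjusted p = 0.0311). The groups of Oat and Slc13a3 overlapped, and the call for Slc13a3 was lost in 6 of the 14 fits that left out 1 animal.

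These calls did not hold with slide in the fit, where the comparison rests on PB animal 1 against the 7 controls of its slide. Most calls over all genes were lost there too: 440 of 20039 tested genes were called, 253 higher and 187 lower, against 11646 without slide. Rhbg then gave 0.35 (adjusted p = 0.426), Oat 0.16 (adjusted p = 0.705) and Slc13a3 -0.15 (adjusted p = 0.912). Slc1a2 was the only 1 of the 7 genes called, and it was lower (-0.80, adjusted p = 0.00937). PB animal 1 was the lowest of the PB animals for 7 of 7 genes, while over all tested genes it was the lowest for 30.4%. Whether slide or this animal sets these values cannot be told apart. All 4 CAR targets stayed called with slide in the fit, Cyp2b10 at 4.20 (adjusted p = 0.000102).

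Glul, Slc1a2, Cyp2e1 and Rgn did not pass in hCAR/hPXR mice, although with quantile normalization Glul (-0.22, adjusted p = 0.0422) and Rgn (-0.22, adjusted p = 0.00970) were called lower. Glul had 6.24 to 6.83 (median 6.71, n = 6) in PB livers, against 6.36 to 6.96 (median 6.59, n = 7) in control livers (0.03 ± 0.11, 95% interval -0.21 to 0.27, adjusted p = 0.835). The spot of PB animal 2 was marked as an outlier by the scanner software and left out, and the authors' deposited table lists it at 3.84. Slc1a2 had 2.82 to 3.97 (median 3.79) in PB livers, against 3.43 to 3.70 (median 3.65) in control livers (0.01 ± 0.14, 95% interval -0.29 to 0.31, adjusted p = 0.953). Its other probes went opposite ways, with 0.33 (adjusted p = 0.0751) and -0.20 (adjusted p = 0.213) in a limma fit over probes. Rgn gave 0.02 ± 0.07 (95% interval -0.12 to 0.17) and Cyp2e1 0.13 ± 0.11 (95% interval -0.10 to 0.35). For all 4 genes the groups overlapped, widely so for Glul, Cyp2e1 and Rgn. For Slc1a2 PB animals 3 to 7 (3.80, 3.79, 3.82, 3.71 and 3.97) lay above every control and PB animal 1 (2.82) lay below. Without PB animal 1 Slc1a2 gave 0.15 and still did not pass.

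Genes around them in hCAR/hPXR mice were called in both directions, as were all tested genes, 35.0% higher and 23.1% lower. Of 18 turnover genes 7 rose and 2 fell, of 16 carriers 7 rose and 4 fell, of 9 urea cycle genes and ammonium carriers 2 rose and 0 fell, and of 14 periportal genes 5 rose and 1 fell. With slide in the fit 0 genes of these 4 lists were called, where 440 of all 20039 tested genes were. Nags, whose product makes the activator of Cps1, gave 0.63 ± 0.09 (adjusted p = 8.81e-05) without slide and 0.47 (adjusted p = 0.228) with it. Of 16 other pericentral genes 8 rose and 3 fell, and 2 rose with slide in the fit as well. These were Gstm3 (2.21 ± 0.33 with slide, adjusted p = 0.00325, and 2.21 ± 0.16 without) and Cyp2c29 (0.64 ± 0.13 with slide, adjusted p = 0.0229, and 0.95 ± 0.08 without). Ugdh rose by 1.05 ± 0.09 and was called with slide in the fit too (1.03, adjusted p = 0.00763). Of 7 hepatocyte markers 1 rose and 0 fell, and of 8 Kupffer cell markers 5 rose (summed level 6.62 to 7.69 in PB livers, against 6.43 to 6.90 in control livers). Of 8 endothelial markers 2 rose and 1 fell, of 7 stellate cell markers 1 rose and 1 fell, and of 4 bile duct markers 2 rose and 1 fell. With slide in the fit 0 markers of these 5 lists were called. Of 6 tumour and fetal markers 3 rose and 0 fell (summed level 5.11 to 6.51 in PB livers, against 1.92 to 3.82 in control livers), and 1 of them, Prom1, was called with slide in the fit (5.79 ± 0.45, adjusted p = 1.6e-05). The part of these markers in the values of the 7 genes was not tested.

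The response to PB differed between the strains for most of the 7 genes, by an interaction test in 1 fit of all 28 arrays. That fit pools the spread of all groups, so a standard error can fall below the one within C3H mice. For Oat it was 0.38 for C3H minus CD-1, against 0.45 within C3H. Dose, duration, carcinogen and slide differ with strain. Within CD-1 mice, and for hCAR/hPXR PB animals 2 to 7, slide also goes with PB. What sets the differences between strains therefore cannot be told apart. The PB effect in C3H exceeded that in CD-1 for 6 of 7 genes, where 9.60% of all tested genes had a higher effect, and that in hCAR/hPXR for 5 of 7, where 4.16% had. Of the 7 genes Glul showed the largest gap, with an effect in C3H that was 5.05 ± 0.42 above that in CD-1 (adjusted p = 9.66e-09) and 3.15 ± 0.38 above that in hCAR/hPXR (adjusted p = 3.21e-06). For Rhbg the C3H effect was 3.92 ± 0.34 above that in CD-1 (adjusted p = 1.52e-08) and 3.00 ± 0.31 above that in hCAR/hPXR (adjusted p = 1.52e-07). Cyp2e1 passed in none of the 3 differences, which were 0.41 ± 0.35 for C3H minus CD-1, -0.13 ± 0.31 for C3H minus hCAR/hPXR and 0.54 ± 0.29 for hCAR/hPXR minus CD-1. This last difference passed as the mean of both probes (0.96, adjusted p = 0.0132) and without CD-1 control animal 2 (0.76, adjusted p = 0.0335). Rgn passed for C3H minus CD-1 (1.49 ± 0.32, adjusted p = 0.00292) and not for C3H minus hCAR/hPXR (0.53 ± 0.29, adjusted p = 0.255), where it passed with quantile normalization (1.18, adjusted p = 0.00608).

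The PB effect in hCAR/hPXR exceeded that in CD-1 for 5 of 7 genes, where 19.5% of all tested genes had a higher effect. The 5 genes were Slc1a2 (2.04 ± 0.36, adjusted p = 0.000272), Glul (1.91 ± 0.35, adjusted p = 0.000498), Oat (1.87 ± 0.31, adjusted p = 0.000164), Rgn (0.96 ± 0.27, adjusted p = 0.00924) and Rhbg (0.92 ± 0.28, adjusted p = 0.0167). The count was 3 with quantile normalization. With slide in the hCAR/hPXR fit the PB effect there was -0.80 for Slc1a2, -0.39 for Glul, 0.16 for Oat, -0.12 for Rgn and 0.35 for Rhbg. The difference from CD-1 was not tested with slide in the fit.

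**Figure D4:**
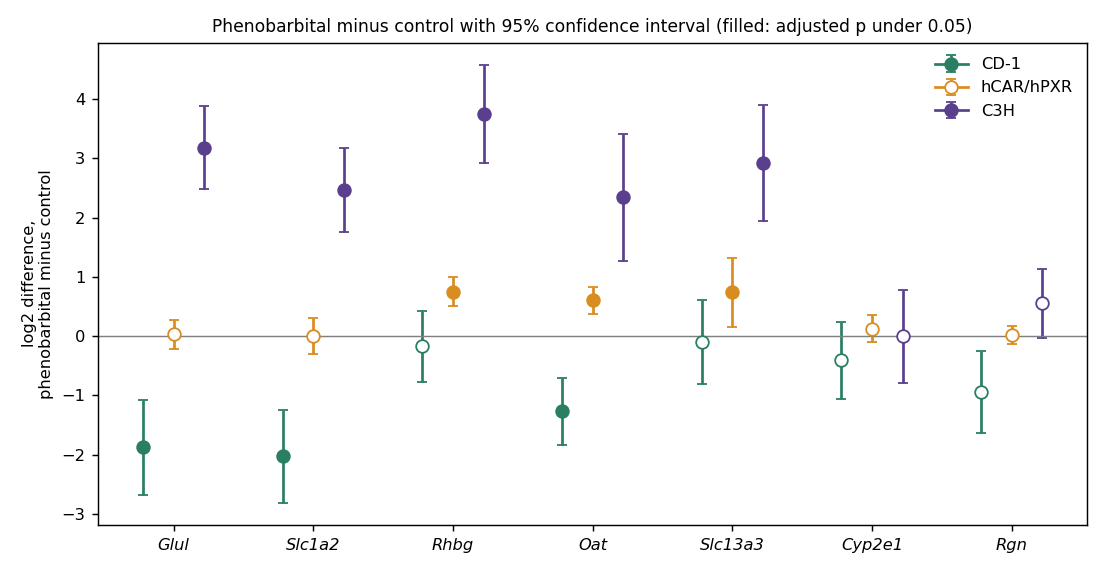
Log2 difference, PB minus control, of each gene in CD-1 (green), hCAR/hPXR (orange) and C3H mice (purple), with its 95% confidence interval and filled where the adjusted p is under 0.05. Glul, Slc1a2 and Oat are below 0 in CD-1 and above 0 in C3H mice, and Cyp2e1 has intervals that include 0 in all 3 strains.

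Ordered by mean level over the 6 groups, C3H PB livers stood first for 6 of the 7 genes, and for Cyp2e1 both C3H groups stood at the top with the same mean of 10.54. For Glul the order was C3H PB (9.30 ± 0.58, SD), hCAR/hPXR PB (6.66 ± 0.22), hCAR/hPXR control (6.63 ± 0.19), C3H control (6.12 ± 0.14), CD-1 PB (1.08 ± 0.48) with CD-1 control (2.95 ± 0.70) above it. Only the hCAR/hPXR groups overlapped among neighbours in that order. For Oat C3H PB (7.74 ± 0.94) overlapped hCAR/hPXR PB (7.33 ± 0.21), which overlapped hCAR/hPXR control (6.73 ± 0.18), followed by C3H control (5.40 ± 0.21) without overlap. Control livers of C3H stood above those of hCAR/hPXR for Rhbg, with 4.02 ± 0.08 against 2.67 ± 0.20, and below them for Glul and Slc1a2. All 7 genes were lowest in the CD-1 groups, on arrays whose brightest probes were dimmer. Levels between strains were not tested, since strain, experiment and slide go together.

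The genes most like Glul across animals were sought by Pearson r after the mean of each strain was subtracted, among 8327 other named genes well above background on all arrays. Slc1a2 was the first, with r = 0.96 over 27 arrays. Next came Tcf4, a transcription factor (0.95), Slc16a11, a monocarboxylate carrier (0.94), Ube2e2, a ubiquitin-conjugating enzyme (0.93), and Gulo (0.93). Oat stood at rank 12 (0.89), Rgn at 50 (0.82), Rhbg at 77 (0.80), Slc13a3 at 158 (0.75) and Cyp2e1 at 2517 (0.41). The genes most like Oat were Maged2 and Lhpp, both at 0.91, Lmo7, Dmpk and Dab2ip, each at 0.90, with Glul at rank 6. These correlations hold the PB effects of the strains within them and describe the same arrays as the tests above.

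Among animals given the same diet the link could be read only in hCAR/hPXR mice, with 12 relations of Glul to the other genes. None passed after adjustment over the 12. In PB animals r between Glul and Slc1a2 was 0.94 (Spearman 0.60, exact permutation p = 0.0556 and 0.242, adjusted p = 0.169 and 0.363, n = 6), and -0.69 without the 2 animals farthest from the Glul median, so it rested on them. The lowest unadjusted p was that of Glul and Slc13a3 in PB animals (r = 0.88, rho = 0.89, exact permutation p = 0.0194 and 0.0333, adjusted p = 0.169 and 0.363, n = 6), with r = 0.50 without the 2 farthest. In control animals, which shared 1 slide, Glul and Slc1a2 gave r = 0.70 (rho = 0.32, exact permutation p = 0.130 and 0.498, adjusted p = 0.195 and 0.543, n = 7) and -0.80 without the 2 farthest. The slide of PB animals 2 to 7 held 5 with a Glul value, too few for a value of its own.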

How the data were processed

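Liver RNA of 28 animals was hybridised to 28 arrays, 1 per animal. Intensity values come from Agilent Feature Extraction 10.7.3.1, per the file headers, which give the processed signal as background-subtracted and detrended, with no scaling between arrays. The deposited value table holds log2 values. Each column equals the log2 processed signal minus a constant that lies -0.0233 to 0.0102 from the 75th percentile used here.

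Outlier-marked spots were dropped, saturated spots did not occur, replicates within an array were averaged on the log2 scale and each array's 75th percentile over 55681 probes was subtracted. RefSeq accessions were named through GRCm38.p6, which gave 26582 probes 1 of 20145 symbols and left 29099 unnamed. The probe of highest mean stands for a gene. It was tested if well above background on every array of 1 or more of the compared groups. Groups were compared within strain with R 4.3.3 and limma 3.58.1 (lmFit and eBayes, two-sided, Benjamini-Hochberg over all tested genes, threshold 0.05, residual degrees of freedom 6, 12 and 4), and PB effects between strains as interactions (22 degrees of freedom). Error values are standard errors of the fit unless called SD. "At least" marks a fold against each array's lowest signal well above background, used where a probe reached that level on none of a group's arrays. A summed level is log2 of the sum of the linear signals of a list. The scripts were tested on simulated data.

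The 7 genes and the gene lists were chosen with earlier results of these data known. From each list up to 4 called genes with the smallest adjusted p are named, plus genes on a member's route. Array numbers limit the precision. Alternatives were other normalizations, probe rules, filters, slide and replicate blocks and leaving out each animal. The same-number correlations of deviations from the group mean, -0.45 to 0.27, did not pair the animals.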

Additional observations from a re-analysis of the deposited data

Results flagged for a closer look

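Dixon's test was run for each gene in each group of 4 to 10 animals, 28 combinations of gene and group. In 4 of them 1 animal stood far from the rest, which chance gives in about 1 of 20. The combinations are not independent, since the genes were read on the same arrays. hCAR/hPXR PB animal 1, the one PB animal on the slide of the controls, was lowest for Glul (6.24), Slc1a2 (2.82) and Oat (6.89). hCAR/hPXR control animal 5 was lowest for Slc1a2 (3.43).

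The PB effect differed between strains by the interaction test for 16 of 21 combinations of gene and pair of strains, all 16 as a higher effect. Of all tested genes 19.5% had a higher effect for hCAR/hPXR minus CD-1, 9.60% for C3H minus CD-1 and 4.16% for C3H minus hCAR/hPXR. The combinations are not independent, since the pairs share strains and the genes share arrays. For hCAR/hPXR minus CD-1 the differences were 1.91 for Glul, 2.04 for Slc1a2, 0.92 for Rhbg, 1.87 for Oat and 0.96 for Rgn. For C3H minus CD-1 they were 5.05 for Glul, 4.49 for Slc1a2, 3.92 for Rhbg, 3.61 for Oat, 3.01 for Slc13a3 and 1.49 for Rgn. For C3H minus hCAR/hPXR they were 3.15 for Glul, 2.45 for Slc1a2, 3.00 for Rhbg, 1.74 for Oat and 2.18 for Slc13a3.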

How the results depend on the processing

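With 3 genes called in hCAR/hPXR mice, slide as a block left 1 and the arrays of the first slide alone left 1, in both cases Slc1a2 at -0.80 (adjusted p = 0.00937 and 0.0357). Both settings compare PB animal 1 with the controls of its slide, so their differences are equal by design and are not separate checks. For the other genes whose sign turned these differences were Glul -0.39, Slc13a3 -0.15, Cyp2e1 -0.30 and Rgn -0.12. Quantile normalization gave Glul -0.22 (adjusted p = 0.0422), Rgn -0.22 (adjusted p = 0.00970), Slc1a2 -0.15 and Cyp2e1 -0.022 in hCAR/hPXR mice and moved the median of all genes in C3H minus hCAR/hPXR to -0.01, against -0.12. It called 3 genes for hCAR/hPXR minus CD-1, against 5. Normexp on median signals gave Slc1a2 -0.026 in hCAR/hPXR and Rhbg 0.16 and Slc13a3 0.034 in CD-1 mice. The deposited table, which keeps the outlier spot, gave Glul -0.37 (adjusted p = 0.418) in hCAR/hPXR mice.

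Cyp2e1 in C3H mice turned to 0.51 with quantile normalization, 0.13 with normexp, 0.00025 in the deposited table and 0.11 as the mean of its probes. For C3H minus hCAR/hPXR it turned to 0.53, 0.014 and 0.017 with quantile normalization, normexp and the mean of probes, and to 0.30 with slide as a block, an alternative chosen after seeing the data, as was leaving out animals in the differences between strains. None of these Cyp2e1 values passed.

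Leaving out 1 animal gave 2 to 3 genes called in CD-1, 2 to 3 in hCAR/hPXR and 4 to 6 in C3H mice, 4 to 6 for hCAR/hPXR minus CD-1, 6 in each fit for C3H minus CD-1 and 5 in each fit for C3H minus hCAR/hPXR. Signs turned for Slc13a3 in CD-1 (-0.32 to 0.071), for Glul (-0.016 to 0.11), Slc1a2 (-0.045 to 0.15) and Rgn (-0.0061 to 0.049) in hCAR/hPXR, and for Cyp2e1 in C3H (-0.37 to 0.19) and in C3H minus hCAR/hPXR (-0.50 to 0.060). The cause of these changes was not tested.

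With the replicate block, counts were 2 in CD-1, 2 in hCAR/hPXR and 4 in C3H mice, against 3, 3 and 5: Oat missed in CD-1 (adjusted p = 0.0528) and C3H (adjusted p = 0.0505) and Slc13a3 in hCAR/hPXR mice (adjusted p = 0.0526).

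Calls over all genes depended more on the setting. In CD-1 mice they were 1901, with 23.1% higher, against 2414 and 33.7% with quantile normalization, 4281 with normexp, 6187 in 1 fit of all arrays and 1160 with the replicate block. In hCAR/hPXR mice they were 11646, against 440 with slide as a block and 230 on the first slide. In C3H mice they were 2682, with 50.3% higher, against 612 and 76.5% without the filter, 1543 and 61.6% with the replicate block and 60.7% higher with normexp. For C3H minus CD-1 they were 3991, against 1399 with 2 strains in the fit, and for C3H minus hCAR/hPXR 1964, with 43.5% higher, against 828 and 61.8% with quantile normalization, 4725 with 2 strains and 581 and 62.5% with slide as a block. For hCAR/hPXR minus CD-1 the higher share was 68.2%, against 57.3% with quantile normalization. Oat in C3H mice missed without the filter (adjusted p = 0.0721), when more genes were tested.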
